A study of Mus musculus with 15 samples.

Results

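The vascular endothelial growth factor (VEGF) family was followed here through 10 genes, namely the ligands *Vegfa*, *Vegfb*, *Vegfc*, *Vegfd* and *Pgf*, the receptors *Flt1*, *Kdr* and *Flt4*, and the neuropilins *Nrp1* and *Nrp2*. The genes were taken by their place in the family, with earlier results of these data known, and they are 10 of the 35142 genes that the transcript estimates cover. All 10 passed the filter on low counts and were among the 15360 genes tested. *Vegfa* and *Flt1* were lower in cultures that had received interleukin-12 (IL-12) at either concentration. For *Vegfa* at 30 ng/ml the call was near the threshold and was kept in 13 of 24 alternative settings. The other 8 members were not called in any of the 4 comparisons.

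The libraries are bulk RNA-seq of dissociated cerebellar cells from C57BL/6 wild-type mouse pups of postnatal day 0 to 4. The cultures were kept in Neurobasal Plus medium with B27 Plus and, on day 14 in vitro, were left unstimulated or given 30 or 100 ng/ml recombinant murine IL-12p70 for 18 h, with 5 cultures in each of the 3 groups. No gene was altered and no other agent was named, so by the labels the 3 groups differ in IL-12 alone. Whether the 5 replicates of a group came from separate animals or platings is not stated, and the p-values measure the spread between these libraries.

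The labels call the cells neurons, but the cultures held several cell types. Summed over cerebellar neuron markers, of which *Map2* and *Zic1* were the most abundant, the level was 265 to 335 TPM in unstimulated cultures, where TPM is the share of transcript molecules scaled to a fixed total. The microglia markers, led by *C1qa* and *C1qc*, summed to 9646 to 13570 TPM in the same cultures. The astrocyte list, led by *Gfap* and *Aqp4*, summed to 3841 to 4299 TPM, and the oligodendrocyte list, led by *Mbp*, to 6652 to 9873 TPM. Mural markers, led by *Acta2* and *Vtn*, summed to 537 to 559 TPM, and fibroblast and meningeal markers, led by *Col3a1* and *Col1a1*, to 505 to 628 TPM. Most of the mural sum was *Acta2* (416 TPM on average), and *Vtn* and *Pdgfrb* stand in both lists. Of the 9 mural markers, 4 had a mean under 1 TPM (*Rgs5*, *Kcnj8*, *Abcc9* and *Higd1b*). Markers of endothelial cells, the classic target of VEGF, were uneven. Of 14, *Cldn5* was listed at 0 in every culture and 7 had a mean under 1 TPM (*Pecam1*, *Tek*, *Esam*, *Erg*, *Robo4*, *Tie1* and *Cldn5*), while *Slco1a4* averaged 31.9 TPM and *Eng* 6.97 TPM in unstimulated cultures. Sequencing depth was 25746096 to 38435850 estimated reads per library.

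VEGF ligands are secreted dimers that bind receptor tyrosine kinases on the cell surface. VEGF-A binds the receptors encoded by *Flt1* and *Kdr*, VEGF-B and placental growth factor (*Pgf*) bind the *Flt1* product, and VEGF-C and VEGF-D bind the receptor encoded by *Flt4*, the main receptor of lymphatic endothelium. *Kdr* encodes the receptor that carries most of the mitogenic signal, whereas the *Flt1* product binds VEGF-A tightly but signals weakly, and its soluble form acts as a decoy. The neuropilins are co-receptors shared between VEGF and the class 3 semaphorins, which guide axons. In the brain VEGF-A is made by astrocytes, neurons and other cells, is induced by hypoxia, and acts on vessels as well as on neurons and glia.

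*Vegfa* (ENSMUSG00000023951, chr17:46327919-46343309 on the minus strand of GRCm39) is spliced into proteins that differ in how firmly they are held by the matrix. The 3 coding transcripts with the largest estimated levels are shown because they differ in the exons that encode the heparin-binding stretches. Each line runs 5′ to 3′ from the 30-base exon at chr17:46334991-46335020 into the first 19 coding bases of the last exon at chr17:46329787-46329805, and capitals mark an exon that is left out of the others. Vegfa-203 carries a 72-base exon (chr17:46333203-46333274), Vegfa-202 a 132-base exon (chr17:46331917-46332048), and Vegfa-201 neither. The 132-base exon is known to encode a stretch that binds heparan sulphate and takes part in binding to neuropilins.
Vegfa-201: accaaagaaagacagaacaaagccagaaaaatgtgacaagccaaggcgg
Vegfa-203: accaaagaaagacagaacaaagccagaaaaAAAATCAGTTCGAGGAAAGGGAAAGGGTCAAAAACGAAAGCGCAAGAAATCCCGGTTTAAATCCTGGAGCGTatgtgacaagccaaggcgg
Vegfa-202: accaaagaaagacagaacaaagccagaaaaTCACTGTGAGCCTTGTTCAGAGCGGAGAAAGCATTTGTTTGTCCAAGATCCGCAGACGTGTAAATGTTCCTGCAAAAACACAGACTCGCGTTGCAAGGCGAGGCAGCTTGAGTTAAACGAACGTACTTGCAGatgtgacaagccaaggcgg

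*Flt1* (ENSMUSG00000029648, chr5:147498414-147662826, minus strand) gives a full-length receptor (Flt1-202) and a soluble one (Flt1-203) that keeps the extracellular part. Both share exon 13, whose last 30 bases (chr5:147576035-147576064) open each line. Capitals mark the 92 coding bases that follow. In Flt1-203 they are read from the intron after exon 13 (chr5:147575943-147576034), and in Flt1-202 they are the first bases of exon 14 (chr5:147571242-147571333).
Flt1-203: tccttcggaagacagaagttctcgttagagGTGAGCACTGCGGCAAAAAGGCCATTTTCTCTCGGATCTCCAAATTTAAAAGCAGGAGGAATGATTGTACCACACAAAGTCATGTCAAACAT
Flt1-202: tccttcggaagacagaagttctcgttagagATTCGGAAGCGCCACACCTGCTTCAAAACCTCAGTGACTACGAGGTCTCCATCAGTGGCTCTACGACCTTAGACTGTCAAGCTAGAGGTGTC

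To place the genes against each other, levels were compared per transcript length, as TPM summed over the transcripts of a gene. In unstimulated cultures *Nrp1* led with 58.7 ± 8.39 TPM (SD, n = 5). *Vegfb* followed with 53.8 ± 4.64 TPM and *Nrp2* with 49.0 ± 4.08 TPM, and these 3 genes could not be ordered, since the ranges of neighbours overlapped. *Vegfa* came next with 33.0 ± 5.28 TPM and *Flt1* with 19.0 ± 2.77 TPM, each apart from its neighbours in all 5 cultures. *Kdr* was far lower with 4.69 ± 0.627 TPM. *Vegfc* stood at 2.90 ± 0.441 and *Pgf* at 2.87 ± 0.184 TPM, with overlapping ranges. *Vegfd* (0.799 ± 0.197 TPM) and *Flt4* (0.700 ± 0.122 TPM) were lowest and overlapped too. In the order over all 15 cultures, *Vegfb* and *Nrp2* exchanged places when read counts were divided by the length of the longest transcript instead. Thus the ligand transcripts were mainly *Vegfb* and *Vegfa*, and among the tyrosine kinase receptors *Flt1* stood above *Kdr* and *Flt4* in every culture.

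**Figure D1:**
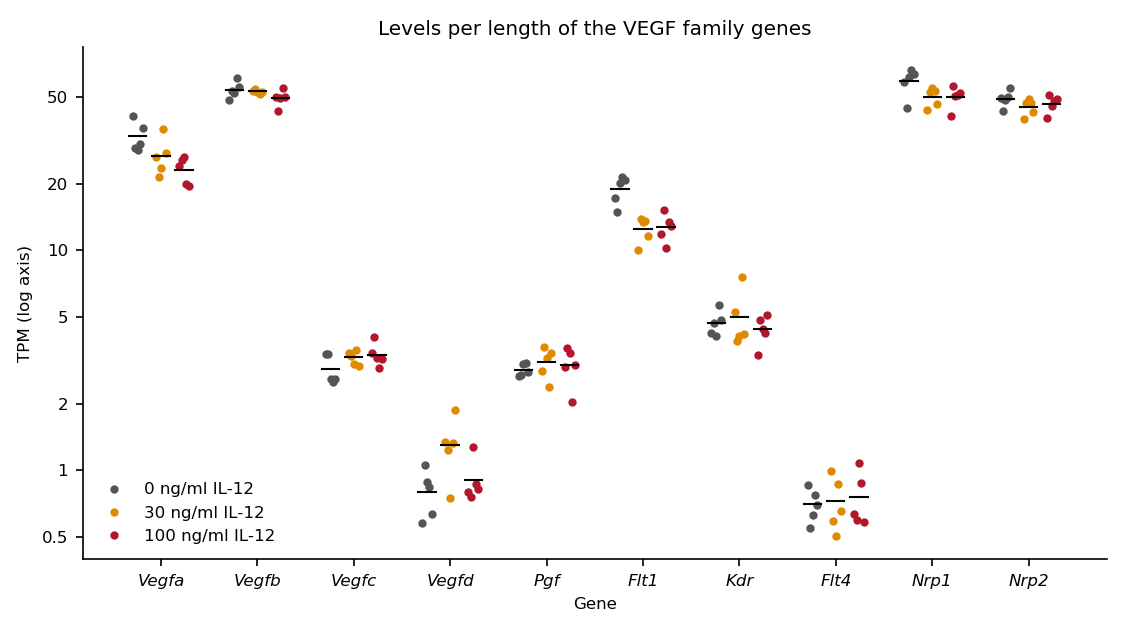
TPM of each gene on a log axis, with 1 point per culture coloured by IL-12 concentration and a black line at the group mean. *Nrp1*, *Vegfb* and *Nrp2* lie together at the top, between 39.4 and 65.9 TPM, and *Vegfd* and *Flt4* at the bottom, under 2 TPM.

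Within a gene, the groups were compared as CPM, the reads of a gene relative to the size of its library, which was scaled by the trimmed mean of M values, and a gene was called at a false discovery rate (FDR) under 0.05 over all genes tested. At 100 ng/ml, 2 of the 10 members were called and both were lower, where 9.77% of all genes tested were called and 3.93% were called lower. At 30 ng/ml the same 2 members were called lower, against 7.87% of all genes called and 3.71% called lower. With the mean of both concentrations set against unstimulated cultures there were again 2, against 11.9% of all genes and 5.22% called lower. Between 100 and 30 ng/ml edgeR called 0 members, 0 had an unadjusted p under 0.05 and DESeq2 also called 0, where 0.579% of all genes were called. The 3 comparisons with unstimulated cultures share those 5 cultures and are not independent of each other. The median log2 fold change over the 10 members was −0.08 (100 ng/ml) and −0.03 (30 ng/ml), beside −0.0038 and 0.0001 over all genes tested. An unadjusted p under 0.05 was reached by 4 members at 100 ng/ml, beside 25.6% of all genes, and by 5 at 30 ng/ml, beside 22.7%.

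**Figure D2:**
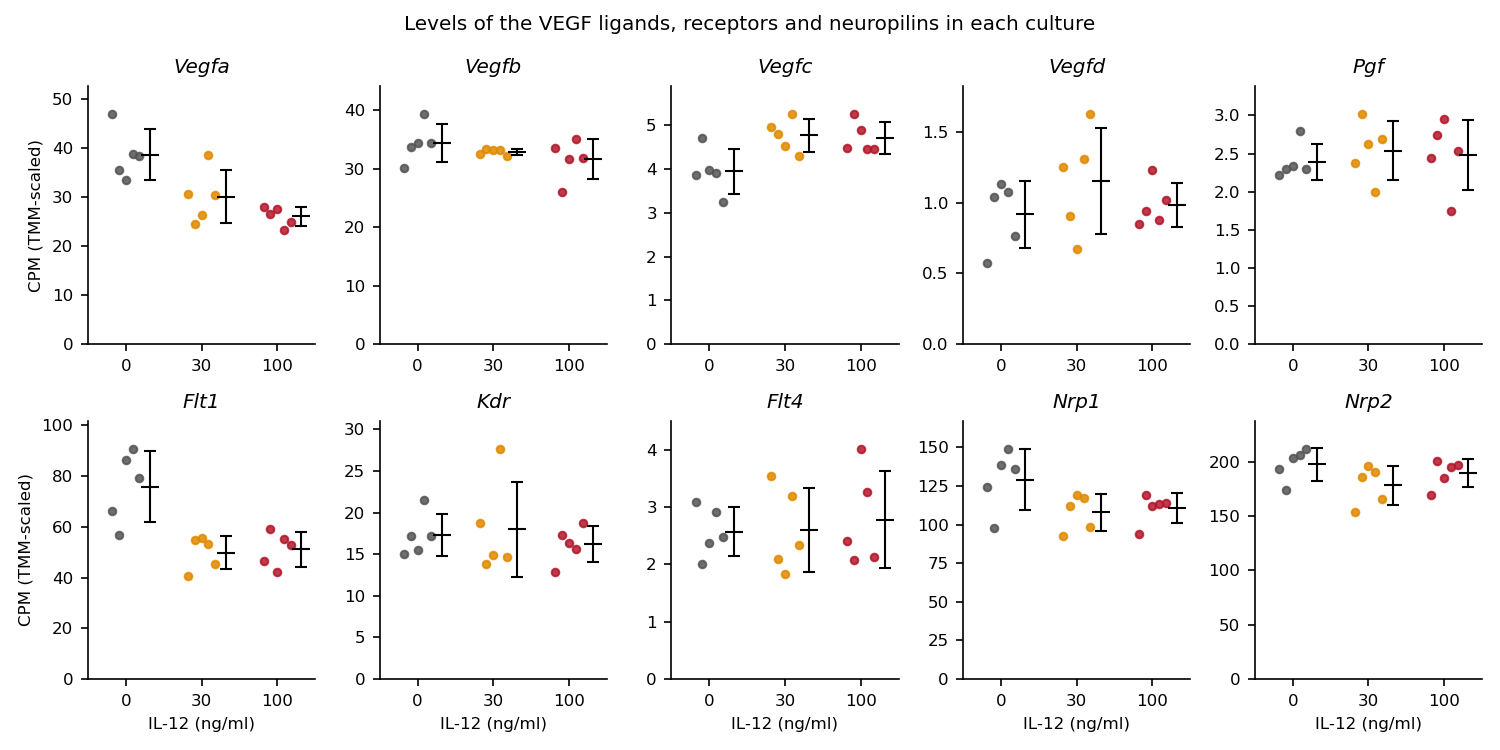
CPM of each gene in every culture by IL-12 concentration, with the group mean and SD (n = 5) as a black bar beside the points and an axis from 0 in each panel. *Vegfa* at 100 ng/ml and *Flt1* at 30 ng/ml lie below every unstimulated culture, while the groups of the other 8 genes overlap.

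*Vegfa* encodes the main ligand of the family. The 5 unstimulated cultures held 47.0, 35.4, 33.4, 38.8 and 38.3 CPM. With 30 ng/ml the values were 30.6, 24.5, 26.4, 38.6 and 30.4 CPM, and with 100 ng/ml they were 28.0, 26.5, 27.5, 23.3 and 25.0 CPM. Every culture at 100 ng/ml thus lay below every unstimulated one, a pattern shown downwards by 2.84% of all genes tested, whereas 1 culture at 30 ng/ml, replicate 4, reached into the unstimulated range. The mean went from 38.6 ± 5.19 CPM to 30.1 ± 5.41 and 26.1 ± 1.91 CPM (SD, n = 5). At 100 ng/ml *Vegfa* fell by 32.6%, a log2 fold change of −0.57 with an SE of 0.11 and an FDR of 0.0028. At 30 ng/ml it fell by 22.2%, with a log2 fold change of −0.36 (SE 0.11, FDR 0.0431). The call at 30 ng/ml was near the threshold and was kept in 13 of 24 alternative settings, while that at 100 ng/ml was kept in 24 of 24. The difference between the concentrations, −0.21 (SE 0.11), was not called (FDR 0.436). In bulk libraries fewer cells that make a transcript and less of it per cell cannot be told apart.

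*Vegfb* encodes a ligand of the *Flt1* product with little angiogenic activity of its own. Its CPM ranged from 30.2 to 39.4 in unstimulated cultures, from 32.2 to 33.4 at 30 ng/ml and from 25.98 to 35.1 at 100 ng/ml. The groups overlapped, and the log2 fold changes of −0.06 (SE 0.07) at 30 and −0.12 (SE 0.07) at 100 ng/ml were not called (FDR 0.670 and 0.312). *Vegfb* (chr19:6958447-6965127, minus strand) overlaps *Trpt1* on the opposite strand. The library kit keeps strand, but whether the estimates used it is not given in the sources used here.

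*Vegfc*, which encodes a ligand of the lymphatic receptor and a growth factor for oligodendrocyte precursors, had a higher mean with IL-12 but passed no test. Unstimulated cultures held 3.87, 4.70, 3.98, 3.91 and 3.25 CPM. The values were 4.95, 4.80, 4.53, 5.26 and 4.28 CPM with 30 ng/ml and 4.48, 5.24, 4.89, 4.44 and 4.46 CPM with 100 ng/ml. Only unstimulated replicate 2 reached into the stimulated ranges. The log2 fold changes of 0.27 (SE 0.10) and 0.25 (SE 0.10) did not pass the threshold (FDR 0.0992 and 0.114), nor did that of both concentrations together, 0.26 (SE 0.09, FDR 0.0556). Without unstimulated replicate 2 the FDR was 0.0340 at 30 ng/ml and 0.0192 for both together, and *Vegfc* was then called. Leaving out the culture that overlapped was bound to widen the gap, so this is no further support. *Vegfc* was called in 1 of 24 alternative settings at 30 ng/ml, in 0 of 24 at 100 ng/ml and in 5 of 23 for both together. With an offset for transcript length its FDR at 30 ng/ml was 0.536.

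*Pgf* and *Vegfd* were read at low depth, with 52 to 91 and 18 to 46 estimated reads per library. *Pgf* averaged 2.39 ± 0.232, 2.54 ± 0.384 and 2.48 ± 0.454 CPM with 0, 30 and 100 ng/ml IL-12. *Vegfd* averaged 0.917 ± 0.238, 1.15 ± 0.371 and 0.982 ± 0.155 CPM in the same order. All these groups overlapped, and with SEs of 0.14 for *Pgf* and 0.24 for *Vegfd* a difference of the size seen for *Vegfc* was not detectable at this depth for either gene.

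As a share of the summed TPM of the 5 ligands, *Vegfa* held 35.3% ± 4.70 without IL-12, 30.7% ± 4.47 with 30 and 29.1% ± 3.69 with 100 ng/ml. *Vegfb* held 57.7% ± 4.53, 60.5% ± 3.88 and 61.8% ± 4.82. The summed ligand level was 93.4 ± 4.85, 87.4 ± 4.39 and 79.8 ± 2.91 TPM. It ranged from 86.9 to 97.6 TPM in unstimulated cultures and from 76.7 to 83.5 TPM at 100 ng/ml, and was not tested. The sum contains *Vegfa*, whose mean was 33.0 TPM without IL-12 and 23.2 TPM with 100 ng/ml, so it is no separate result. *Vegfb* also had a lower mean TPM at 100 ng/ml, while those of *Vegfc*, *Vegfd* and *Pgf* were higher. The ranges of the shares overlapped between all groups.

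*Flt1*, which encodes the high-affinity VEGF-A receptor and its soluble decoy, was the receptor that changed. Unstimulated cultures held 66.2, 56.9, 86.3, 90.9 and 79.1 CPM. The values were 40.8, 54.7, 55.6, 53.1 and 45.3 CPM with 30 ng/ml and 46.5, 59.4, 42.1, 55.1 and 52.8 CPM with 100 ng/ml. All cultures at 30 ng/ml lay below all unstimulated ones, as did 3.46% of all genes tested, and at 100 ng/ml only replicate 2 exceeded the lowest unstimulated culture, which was also a replicate 2. The mean went from 75.9 ± 14.1 to 49.9 ± 6.52 and 51.2 ± 6.89 CPM. *Flt1* fell by 34.2% at 30 ng/ml, with a log2 fold change of −0.60 (SE 0.12, FDR 0.0064), and by 32.6% at 100 ng/ml, with −0.57 (SE 0.12, FDR 0.0070). Both calls were kept in 24 of 24 alternative settings. The concentrations differed by 0.04 (SE 0.12, FDR 0.938).

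Several cell types carry *Flt1*, among them endothelial cells and cells of the myeloid line, so their markers are given beside it. For the counts that follow, 9.77% of all genes tested were called at 100 ng/ml and 7.87% at 30 ng/ml. The microglia markers summed to 7700 to 9598 TPM at 30 ng/ml and to 9155 to 12040 TPM at 100 ng/ml, against 9646 to 13570 TPM in unstimulated cultures. Of the 14 tested, 10 were lower at 30 ng/ml and 0 were called at 100 ng/ml, with median log2 fold changes of −0.43 at 30 and −0.14 at 100 ng/ml. The endothelial markers summed to 44.1 to 55.9 TPM at 30 ng/ml and to 45.1 to 57.4 TPM at 100 ng/ml, against 51.9 to 57.5 TPM without IL-12. Of the 8 tested, 1 (*Vwf*) was lower at 30 ng/ml and 0 were called at 100 ng/ml, with medians of −0.20 and −0.12. Oligodendrocyte markers were lower for 4 of 12 at 100 ng/ml, *Mbp* among them, and for 1 of 12 at 30 ng/ml, with medians of −0.165 and −0.11. Of the astrocyte markers, 1 was higher and 1 lower at 100 ng/ml and 3 were higher at 30 ng/ml, of 11, with medians of −0.02 and 0.16. Of 14 neuron markers tested, 1 was higher and 1 lower at 100 ng/ml, and 1 was higher and 2 lower at 30 ng/ml, with medians of −0.26 and −0.49 that lay below those of the microglia markers at the same concentrations. The neuron markers summed to 314 to 363 TPM at 30 ng/ml and to 302 to 317 TPM at 100 ng/ml. For mural markers the counts were 1 higher of 6 at 100 ng/ml and 1 lower at 30 ng/ml, and for fibroblast and meningeal markers 2 higher of 9 and 0 called. The medians at 100 and 30 ng/ml were 0.09 and −0.01 for mural markers and 0.055 and −0.10 for fibroblast and meningeal markers. Their part in the differences of *Vegfa* and *Flt1* was not tested.

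*Kdr* (chr5:76093487-76139884, minus strand) encodes the main signalling receptor for VEGF-A. It ranged from 15.02 to 21.5 CPM in unstimulated cultures, from 13.8 to 27.7 at 30 ng/ml and from 12.9 to 18.7 at 100 ng/ml. The highest value, 27.7 CPM, was in replicate 4 of the 30 ng/ml group, the same culture that held the most *Vegfa* of that group. The log2 fold changes were 0.06 (SE 0.16, FDR 0.873) at 30 ng/ml, which became −0.15 without that culture, and −0.09 (SE 0.16, FDR 0.765) at 100 ng/ml. *Flt4*, the receptor for VEGF-C and VEGF-D, had 49 to 124 estimated reads per library and averaged 2.57 ± 0.429, 2.60 ± 0.732 and 2.78 ± 0.840 CPM. Its groups overlapped widely (FDR 0.981 at 30 and 0.795 at 100 ng/ml). The ratio of *Flt1* to *Kdr* TPM was 4.07 ± 0.649 without IL-12, 2.68 ± 0.811 with 30 and 2.96 ± 0.499 with 100 ng/ml, with overlapping ranges.

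*Nrp1*, a co-receptor of VEGF-A and of semaphorin 3A, had a lower mean with IL-12, but no comparison passed the threshold. Unstimulated cultures held 124, 97.9, 139, 149 and 136 CPM. The values were 92.5, 112, 119, 117 and 98.6 CPM with 30 ng/ml and 93.9, 119, 112, 114 and 114 CPM with 100 ng/ml. Again unstimulated replicate 2 was the lowest of its group, and the other 4 lay above every stimulated culture. The log2 fold changes were −0.26 (SE 0.10, FDR 0.115) at 30 ng/ml, −0.22 (SE 0.10, FDR 0.156) at 100 ng/ml and −0.24 (SE 0.08, FDR 0.0691) for both together. *Nrp1* was called in 1 of 24 alternative settings at each concentration and in 4 of 23 for both together. Without unstimulated replicate 2, whose removal was bound to widen the gap, it was called in each, with FDRs of 0.0131, 0.0261 and 0.0069. That culture also had the lowest *Flt1* and *Nrp2*, the lowest microglia marker sum (9646 TPM) and the lowest summed level of hypoxia-inducible genes (4648 TPM) of the unstimulated group.

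*Nrp2*, the co-receptor for VEGF-C and semaphorin 3F, was the member with the most reads. It ranged from 174 to 212 CPM in unstimulated cultures, from 153 to 196 at 30 ng/ml and from 170 to 201 at 100 ng/ml. On the log2 scale the differences were −0.15 (SE 0.07, FDR 0.204) and −0.06 (SE 0.07, FDR 0.621), and neither was called. *Nrp2* (chr1:62742444-62857854, plus strand) overlaps the annotated genes *Gm29083* and *Gm37121*, to which some of its reads could have been assigned.

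**Figure D3:**
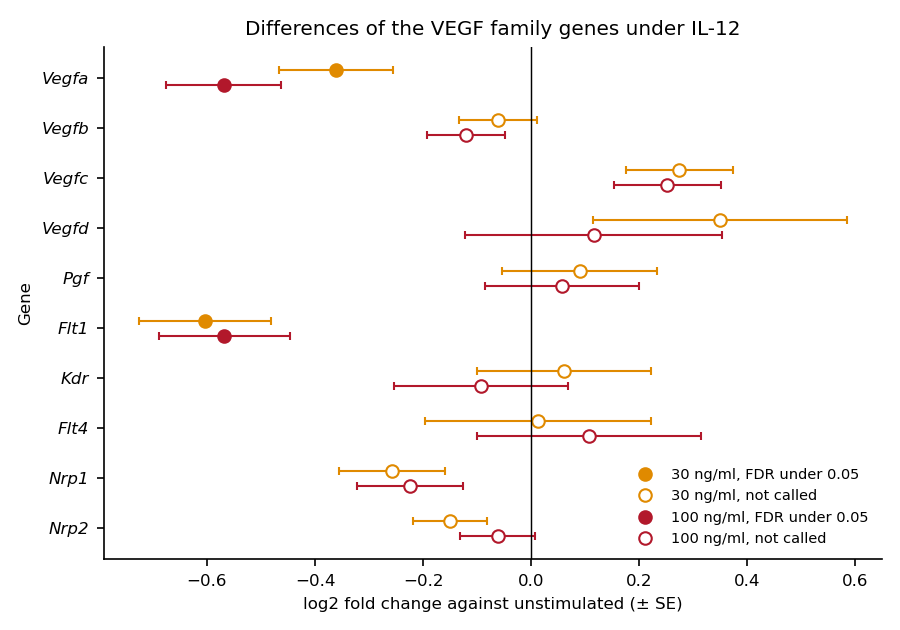
Log2 fold changes against unstimulated cultures with their SE at 30 ng/ml (orange) and 100 ng/ml (red), filled where the FDR was under 0.05. Only *Vegfa* and *Flt1* carry filled points, between −0.36 and −0.60, and those of *Nrp1* and *Vegfc* lie on opposite sides of 0 without being called.

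To see whether the forms of the ligands and receptors printed above moved together, the 44 transcripts of the 10 genes were examined. At least 1 CPM in at least 2 cultures was reached by 22 of them. edgeR called 0 of the 22 at 100 ng/ml and 0 at 30 ng/ml, where 0.559% and 0.359% of all transcripts tested were called. An unadjusted p under 0.05 was reached by 6 and 5 of the 22, beside 9.87% and 9.01% of all transcripts. Between the concentrations 0 were called, 0 had an unadjusted p under 0.05, and the share of all transcripts was 0.0217%. With both concentrations together 2 were called, against 0.784% of all transcripts, and both were forms of *Flt1*.

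The full-length Flt1-202 was 14.2 ± 2.40 TPM without IL-12, 9.54 ± 1.27 with 30 and 9.57 ± 1.31 with 100 ng/ml. The soluble Flt1-203 was 3.66 ± 0.649, 2.38 ± 0.299 and 2.37 ± 0.518 TPM. With both concentrations together the log2 fold change of Flt1-202 was −0.58 (FDR 0.0311) and that of Flt1-203 −0.63 (FDR 0.0475). The soluble form made up 20.5% ± 0.480 of the sum of both forms without IL-12, 20.1% ± 2.10 with 30 and 19.7% ± 1.47 with 100 ng/ml. The ranges of this share overlapped between all groups, while both forms were lower with IL-12.

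Among *Vegfa* transcripts, Vegfa-202 with the 132-base exon was 11.2 ± 3.04, 8.79 ± 1.97 and 7.19 ± 0.673 TPM at 0, 30 and 100 ng/ml. Vegfa-201 was 6.42 ± 1.28, 5.01 ± 0.997 and 4.32 ± 1.06 TPM. Vegfa-203 rested on 0 to 48 estimated reads per library and was 4.21 ± 1.48, 3.78 ± 2.23 and 2.61 ± 2.05 TPM, with 0 in 1 culture at 100 ng/ml. None of these passed the test (FDR 0.139, 0.285 and 0.958 with both concentrations together). Transcripts with the 132-base exon held 51.0% ± 6.21, 50.2% ± 1.57 and 52.0% ± 9.52 of the coding *Vegfa* TPM. The transcripts with a retained intron, Vegfa-210 and Vegfa-209, held 20.6% and 7.22% of all *Vegfa* TPM in unstimulated cultures.

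Of the other members, *Vegfb* was split between Vegfb-201 and Vegfb-202. The latter held 39.4% ± 2.28, 40.0% ± 2.56 and 42.2% ± 4.80 of their sum at 0, 30 and 100 ng/ml. The *Nrp2* transcripts were Nrp2-202, Nrp2-205 and Nrp2-204 in order of level, with 44.3%, 26.6% and 17.3% of the gene in unstimulated cultures. Those ending in the nearer of the alternative last exons held 30.2% ± 1.72, 30.3% ± 0.844 and 30.6% ± 1.80 of the coding level. *Vegfc*, *Pgf*, *Kdr*, *Flt4* and *Nrp1* each came mainly from 1 coding transcript (Vegfc-201, Pgf-201, Kdr-201, Flt4-201 and Nrp1-201), which held 88.7% to 99.6% of the gene on average. Pgf-203, with a retained intron, held 8.29% of *Pgf*. In the test of transcript usage 0 of 17 transcripts from 5 genes were called and 0 had an unadjusted p under 0.05, with a smallest p of 0.275 and 0.15% called among all transcripts tested for usage.

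**Figure D4:**
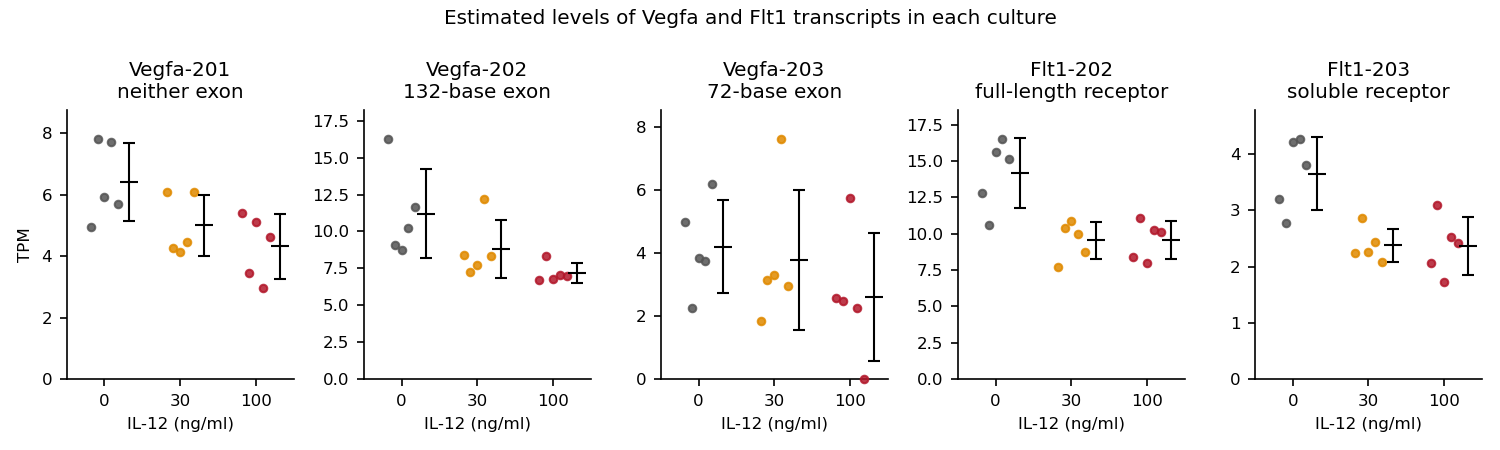
TPM of 3 *Vegfa* and 2 *Flt1* transcripts in every culture by IL-12 concentration, with the group mean and SD (n = 5) beside the points and axes from 0. Both *Flt1* forms lie lower with IL-12, and the 3 *Vegfa* forms have lower means with IL-12, with Vegfa-203 spread from 0 to 7.63 TPM over all cultures.

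To relate the ligand to its regulators, genes for transcription factors and oxygen sensors that act on *Vegfa* were examined. Of 20 tested, 3 were lower and 0 higher at 100 ng/ml, and 1 was lower and 0 higher at 30 ng/ml. The share called was above that of all genes tested at 100 ng/ml (9.77%) and below it at 30 ng/ml (7.87%). Genes called lower made up 3.93% and 3.71% of all genes tested at 100 and 30 ng/ml. *Egln3*, an oxygen-sensing prolyl hydroxylase that is itself induced by hypoxia, went from 43.7 ± 2.704 to 31.2 ± 5.75 and 25.1 ± 2.75 CPM (FDR 0.0067 at 30 and 9.2e-05 at 100 ng/ml). *Egln1*, its relative, went from 88.6 ± 3.73 to 80.9 ± 3.26 and 76.5 ± 2.51 CPM and was called at 100 ng/ml (FDR 0.0033). *Fos*, a subunit of the AP-1 transcription factor, went from 89.6 ± 6.80 to 80.2 ± 6.84 and 69.9 ± 2.94 CPM and was called at 100 ng/ml (FDR 0.0012). *Hif1a* and *Epas1*, which encode the oxygen-regulated subunits, had log2 fold changes of −0.10 and −0.09 at 100 ng/ml and were not called (FDR 0.527 and 0.400). These factors are regulated largely at the protein level, which was not measured in these files.

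Hypoxia-inducible genes, the class to which *Vegfa* belongs, were mostly lower. Of 24 such genes other than members, 16 were lower and 1 higher at 100 ng/ml, and 18 were lower and 1 higher at 30 ng/ml. *Egln3* stands both in this list and in that of the regulators above, and is counted in each. Of all genes tested, 3.93% were called lower at 100 ng/ml and 3.71% at 30 ng/ml. The median log2 fold change of the 24 genes was −0.32 at 100 and −0.35 at 30 ng/ml. The list was chosen with earlier results of these cultures known and is no independent evidence of its direction. *Ankrd37*, a direct target of the hypoxia-inducible factors, went from 2.07 ± 0.569 to 0.539 ± 0.158 and 0.271 ± 0.107 CPM, a log2 fold change of −2.93 (SE 0.27) at 100 ng/ml. *Slc16a3*, a lactate exporter, went from 62.5 ± 6.50 to 20.5 ± 6.12 and 21.7 ± 2.88 CPM, with log2 fold changes of −1.61 and −1.52. *Bnip3*, a mitophagy receptor, went from 81.7 ± 13.2 to 49.8 ± 8.55 and 44.2 ± 2.07 CPM, and *Pdk1*, which restrains pyruvate entry into mitochondria, from 70.5 ± 8.78 to 42.6 ± 7.40 and 39.9 ± 2.16 CPM. For all 4, every stimulated culture lay below every unstimulated one, as in 2.84% of all genes tested at 100 ng/ml and 3.46% at 30 ng/ml. These 4 were named for the largest changes among the genes called, so the gap follows in part from the choice. *Aldoc*, a glycolytic enzyme that also marks astrocytes, was the one higher gene (0.29 at 100 and 0.27 at 30 ng/ml). The fall of *Vegfa* and *Flt1* at 100 ng/ml, −0.57 in both, was larger than the list's median, and *Tpi1* (−0.62) and *Ldha* (−0.55) were the nearest genes of the list on either side.

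**Figure D5:**
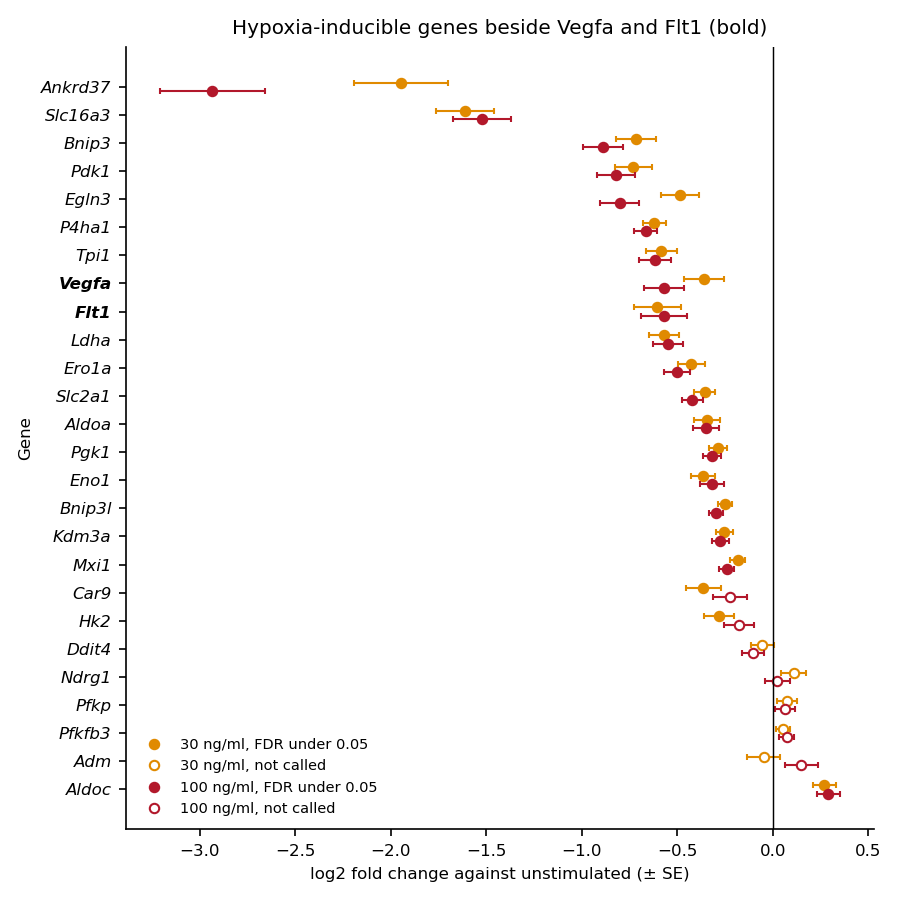
Log2 fold changes with SE of 24 hypoxia-inducible genes and of *Vegfa* and *Flt1* (bold), at 30 ng/ml (orange) and 100 ng/ml (red), ordered by the value at 100 ng/ml and filled where the FDR was under 0.05. *Vegfa* and *Flt1* lie between *Tpi1* and *Ldha*, and *Ankrd37* has the largest difference, −2.93.

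The list also holds 2 of the 5 genes whose levels followed *Vegfa* most closely, *Bnip3* and *Egln3*. Over the 15 cultures and 12144 protein-coding genes with a mean of at least 5 CPM, the highest Pearson r of log2(CPM + 1) with *Vegfa* were those of *Bnip3* (0.917), the mitochondrial adenylate kinase *Ak4* (0.887), *Egln3* (0.885), the hyaluronidase *Hyal1* (0.884) and the endosomal adaptor *Appl2* (0.884). *Flt1* had an r of 0.498 and rank 780. These values describe libraries that share treatment and depth. All 5 genes had a lower mean at both concentrations, *Ak4* for example 26.5 ± 3.36, 19.1 ± 3.24 and 15.1 ± 0.919 CPM, and within the 30 ng/ml group replicate 4 held both the most *Vegfa* and the highest sum of hypoxia-inducible genes (4509 TPM).

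The core of the hypoxia response element was looked for in the 250 bases before each start site, in RefSeq promoter windows on GRCm38.p6, which is not the build of the transcript coordinates given above. All 10 members matched, with 12 windows. The letters ACGTG or GCGTG on either strand were found in 7 of the 12 windows, each of another member, and in 38.6% of the 32851 windows of all genes. ACGTG alone was found in 1 of the 12 and in 16.6% of all windows. That window belonged to *Vegfa*, at its second RefSeq start, while the window of its first start held neither. The *Flt1* window (chr5:147726012-147726261, minus strand) is printed because *Flt1*, like *Vegfa*, is known to be induced by hypoxia. Capitals mark its single match, GCGTG read on the other strand, 184 bases before the start. Bases further from the start were not searched for any member. Whether this match takes part in a response to hypoxia was not tested.
Flt1 promoter: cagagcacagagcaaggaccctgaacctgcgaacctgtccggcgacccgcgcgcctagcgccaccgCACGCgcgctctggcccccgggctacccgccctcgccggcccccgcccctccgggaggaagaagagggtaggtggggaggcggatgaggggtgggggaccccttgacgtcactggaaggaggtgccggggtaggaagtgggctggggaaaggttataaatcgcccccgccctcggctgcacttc

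Genes acting downstream of the receptors were counted from a list of VEGF receptor signalling. Of 45 tested, 2 were higher and 5 lower at 100 ng/ml, and 1 was higher and 2 lower at 30 ng/ml, with median log2 fold changes of −0.06 and −0.03. The share called was 15.6% at 100 ng/ml, beside 9.77% of all genes, and 6.67% at 30 ng/ml, beside 7.87%. Of all genes tested, 5.83% were called higher and 3.93% lower at 100 ng/ml, and 4.16% higher and 3.71% lower at 30 ng/ml. *Sphk1*, a sphingosine kinase activated by VEGF, went from 3.20 ± 0.512 to 4.34 ± 0.396 and 5.37 ± 0.784 CPM and was called at both concentrations (FDR 0.0396 at 30 and 0.0011 at 100 ng/ml), with no overlap between stimulated and unstimulated cultures. It was named for its large change, so that gap follows in part from the choice. *Hspb1*, a heat shock protein phosphorylated downstream of p38, went from 51.6 ± 5.49 to 60.9 ± 4.27 and 67.1 ± 6.55 CPM and was called at 100 ng/ml (FDR 0.0042). *Gab1*, an adaptor, was lower at 100 ng/ml (−0.22, FDR 0.0287), and *Plcg2*, a phospholipase of immune cells, was lower at 30 ng/ml (−0.28, FDR 0.0391).

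Genes whose products release, process or trap VEGF included higher and lower ones. Of 19 tested, 4 were higher and 1 lower at each concentration, and the higher genes were not all the same at both. This is 26.3% called, beside 9.77% of all genes at 100 ng/ml and 7.87% at 30 ng/ml. The median log2 fold changes were 0.11 and 0.04 at 100 and 30 ng/ml. *Mmp3*, a matrix metalloproteinase that can cleave VEGF-A from the matrix, went from 3.79 ± 0.765 to 7.88 ± 1.21 and 7.05 ± 1.67 CPM, with log2 fold changes of 1.06 (SE 0.16) and 0.90 (SE 0.16). *Mmp14*, a membrane-bound metalloproteinase, went from 189 ± 8.06 to 223 ± 9.24 and 271 ± 17.2 CPM and was also higher at 100 than at 30 ng/ml (FDR 0.0082). *Adamts14*, of the procollagen protease family related to the VEGF-C processing enzyme, was higher by 0.35 and 0.39. *Plau*, the urokinase plasminogen activator, went from 163 ± 12.1 to 114 ± 15.1 and 117 ± 9.82 CPM and was the one lower gene. In each of these 4 genes the stimulated and unstimulated cultures did not overlap. They were named for the largest changes among the genes called, so this gap follows in part from the choice.

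The semaphorins and plexins share the neuropilins with VEGF. Of 11 tested, 1 was higher and 0 lower at each concentration, and the genes differed. This is 9.09% called at each, near the share of all genes tested, 9.77% at 100 ng/ml and 7.87% at 30 ng/ml. *Plxnd1*, the receptor of semaphorin 3E, went from 55.0 ± 2.22 to 52.7 ± 2.18 and 63.8 ± 3.54 CPM and was higher at 100 ng/ml than in unstimulated cultures (FDR 0.0069) and than at 30 ng/ml (FDR 0.0063). *Plxna3*, a partner of the neuropilins, went from 15.7 ± 0.974 to 19.7 ± 1.72 and 16.0 ± 1.04 CPM and was higher at 30 ng/ml than in unstimulated cultures (FDR 0.0060) and than at 100 ng/ml (FDR 0.0429). No semaphorin 3 gene was called in the comparisons with unstimulated cultures.

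The platelet-derived growth factor genes are the nearest relatives of the VEGF family. Of 6 tested, 2 were higher at 100 ng/ml, and 1 was lower at 30 ng/ml. The share called was 33.3% and 16.7%, beside 9.77% and 7.87% of all genes. *Pdgfrb*, the receptor of mural cells, went from 32.1 ± 2.83 to 35.5 ± 1.88 and 39.9 ± 3.55 CPM (FDR 0.0065 at 100 ng/ml), and *Pdgfd*, one of its ligands, from 25.5 ± 0.949 to 27.8 ± 1.22 and 29.3 ± 1.95 CPM (FDR 0.0182). *Pdgfb*, another ligand of that receptor, was lower at 30 ng/ml (−0.24, FDR 0.0268) and was not called at 100 ng/ml (−0.18, FDR 0.0722).

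Genes that VEGF induces in endothelial cells gave 1 higher and 2 lower of 12 tested at 100 ng/ml, and 1 higher and 1 lower at 30 ng/ml. The share called was 25.0% and 16.7%, beside 9.77% and 7.87% of all genes. *Esm1*, a secreted proteoglycan that marks endothelial tip cells, went from 6.36 ± 0.777 to 12.0 ± 1.32 and 13.1 ± 0.837 CPM, with log2 fold changes of 0.91 (SE 0.09) and 1.03 (SE 0.09). The nuclear receptor *Nr4a3* went from 14.6 ± 0.786 to 11.7 ± 0.593 and 10.8 ± 0.681 CPM and was lower at both concentrations (FDR 0.0039 at 30 and 0.00024 at 100 ng/ml). Its relative *Nr4a1* was lower at 100 ng/ml (−0.29, FDR 0.0417). Over the 12 genes the median log2 fold changes were −0.10 at 100 and −0.11 at 30 ng/ml, and *Esm1* was the only gene called higher. Whether its rise relates to VEGF signalling was not tested.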

How the data were processed

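The 15 libraries were prepared by the authors with a stranded mRNA kit. According to the methods, reads were aligned to GRCm39 with STAR 2.7.8a and counted with featureCounts on GENCODE M26. The deposited files instead hold, for 121798 transcripts, a length, an estimated count and a TPM, and the program that made them is not given in the sources used here. The deposited estimated counts of each gene's transcripts were added up, with 120537 transcripts (99.0%) assigned to 35142 genes by GENCODE M39, and rounded. Unmatched transcripts held 0.677% to 0.712% of the reads. How reads were divided between transcripts carries an uncertainty that the spread between libraries covers only in part. TPM, as deposited, were used to compare levels between genes.

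Genes and transcripts with at least 1 CPM in at least 2 libraries were scaled by TMM and tested with the quasi-likelihood test of edgeR 4.0.16 (R 4.3.3) in 1 model of the 3 groups, with Benjamini-Hochberg adjustment and a threshold of 0.05. Transcript usage was tested with diffSpliceDGE of edgeR. Alternatives were other size factors, DESeq2 1.42.0, a likelihood-ratio test, other filters, an offset for transcript length, fewer groups, a replicate block and leaving out each library. The tests were tried on simulated data. Figures used Python 3.11.15 with matplotlib 3.10.9.

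The replicate numbers did not pair the libraries (correlations of −0.183 to 0.264 between deviations of same-numbered libraries), so no block was used. No duplicated library was found. The members and lists were chosen with earlier results of these data known. Named were all members, up to 4 genes per pathway list with the largest change among those called, the 5 genes most like *Vegfa*, transcripts with at least 5% of their gene, and the 2 most abundant genes of each marker list, of which 1 is not reported here. Further genes were named after their values were seen: the endothelial and mural markers under 1 TPM, *Vwf*, *Hif1a*, *Epas1*, *Tpi1*, *Ldha* and *Aldoc*. 1 of 15 microglia markers was not matched and was not analysed here.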

Additional observations from a re-analysis of the deposited data

Results flagged for a closer look

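Within each group of 5 cultures, the CPM of each member was searched for a culture far from the others by Dixon's criterion. Of 30 sets of 5 values, 2 exceeded the critical value of 0.71, and chance alone gives about 1 in 20. *Pgf* was 2.80 CPM in unstimulated replicate 4 and 2.22 to 2.34 CPM in the other 4 unstimulated cultures. *Nrp1* was 93.9 CPM in replicate 1 of the 100 ng/ml group and 112 to 119 CPM in the other 4.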

How the results depend on the processing

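The calls of *Vegfa* at 100 ng/ml (FDR 1.55e-05 to 0.0267) and of *Flt1* at 100 (0.000185 to 0.0240) and 30 ng/ml (7.69e-05 to 0.0212) held in all 24 alternatives. *Vegfa* at 30 ng/ml was lost with library size alone, with the transcript length offset and with only the groups compared (FDR 0.0558, 0.161 and 0.0590), which left 1 member called at 30 ng/ml in each, and in 8 of 15 fits that left out 1 culture, namely unstimulated replicates 1, 4 and 5, replicates 1, 2, 3 and 5 at 30 ng/ml, and replicate 5 at 100 ng/ml (FDR 0.0542 to 0.113). The likelihood-ratio test called 4 members with both concentrations together, adding *Vegfc* and *Nrp1*. In that comparison *Nrp1* was also called by DESeq2 (FDR 0.0402) and without replicate 2 at 100 ng/ml (0.0485), and *Vegfc* with library size alone (0.0436) and without replicate 5 at 30 ng/ml (0.0483). The cause was not tested. Leaving out 1 culture gave 2 to 3 members called at 100 ng/ml, 1 to 4 at 30 ng/ml, 2 to 4 with both together and 0 to 0 between concentrations, with the highest number in each case without unstimulated replicate 2. It gave 0 to 1 transcripts called at either concentration. Pathway list genes called numbered 37 at 100 ng/ml (32 to 54, the latter without replicate 2 of that group). At 30 ng/ml they numbered 31 (26 to 36). Of all genes tested, 9.77% and 7.87% were called. The hypoxia-inducible list gave more of these calls than any other list, 16 lower and 1 higher at 100 ng/ml and 18 lower and 1 higher at 30 ng/ml. Hypoxia-inducible genes called lower numbered 16 to 17 and 16 to 18. Counts per kilobase moved 2 positions in the order of levels.

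With a replicate block, 2 members were called at each concentration, 3 with both together (*Vegfc* added, FDR 0.0497) and 0 between concentrations. Not every library deviated with those of its own number, and the pairing was not used.

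Of the members that were not called, some changed sign. Between concentrations *Vegfc* was 0.075 with the length offset and −0.061 to 0.020 with 1 culture left out, *Vegfb* −0.097 to 0.003, *Pgf* −0.105 to 0.069, *Flt1* −0.028 to 0.10, *Kdr* −0.230 to 0.060, *Flt4* −0.074 to 0.234 and *Nrp1* −0.015 to 0.088. With 1 culture left out at 100 ng/ml *Vegfd* was −0.031 to 0.205, *Pgf* −0.010 to 0.159 and *Flt4* −0.062 to 0.193. At 30 ng/ml *Kdr* was −0.151 to 0.150 and *Flt4* −0.124 to 0.112, and with both together *Kdr* was −0.121 to 0.074 and *Flt4* −0.025 to 0.140. Depth limits *Vegfd*, *Pgf*, *Flt4* and Vegfa-203, which rest on fewer than 125 reads per library.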

Other observations

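*Vegfd* was estimated from a coding transcript (Vegfd-201, 14 to 35 reads per library) and one with a retained intron (Vegfd-202, 0 to 11 reads). Vegfd-202 held 12.2% of the *Vegfd* TPM without IL-12, 44.2% with 30 and 19.6% with 100 ng/ml. It did not pass the filter on low counts and was not tested. The level of *Vegfd* in TPM was therefore 0.799 ± 0.197, 1.31 ± 0.406 and 0.903 ± 0.211 (SD, n = 5), and that of Vegfd-201 alone was 0.696 ± 0.184, 0.732 ± 0.276 and 0.707 ± 0.121.

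The ratio of *Nrp1* to *Nrp2* TPM was 1.196 ± 0.112 without IL-12 (1.03 to 1.33), 1.11 ± 0.0169 with 30 (1.09 to 1.13) and 1.07 ± 0.0360 with 100 ng/ml (1.02 to 1.11), with overlapping ranges in all groups.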
